A study of Arabidopsis thaliana with 14 samples.

Results

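SR proteins are the serine/arginine-rich splicing factors of plants and animals, and 10 Arabidopsis SR genes were followed here through the poly(A) site, m6A and CPSF70-binding data of the series. The 10 genes are SR30, SR34, SR34a and SR34b of the SR subfamily, RS2Z32 and RS2Z33 of the RS2Z subfamily, SCL33 of the SCL subfamily, and RS31, RS40 and RS41 of the RS subfamily. They were chosen by name, by their loci, with earlier results of these data known. They make up 10 of the 15470 genes that had at least 1 listed poly(A) cluster on the gene strand. All 10 had clusters in both wild-type tables and 9 had clusters in both mutant tables.

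An SR protein carries RNA recognition motifs at its N-terminal side and a domain of arginine-serine repeats at its C-terminal side. It binds exons, recruits the U1 particle and U2AF to the splice sites, and is moved between storage speckles and the rest of the nucleus by phosphorylation. Plant SR transcripts are themselves spliced in many alternative ways that change with light, hormones and stress, and several SR proteins act on the splicing of SR transcripts, their own included. Where a transcript ends decides which stretch of its last exon or intron it keeps, and CPSF70 is the part of the 3′ end processing complex whose YTH domain binds m6A, the methyl mark on adenosine.

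The series of 14 Arabidopsis thaliana samples, in 7 groups of 2, asks how poly(A) site choice depends on m6A and on CPSF70. The poly(A) groups are 12-day seedlings of the wild type Col0 and of the cpsf70 mutant, whose allele the labels do not give. The m6A group is 14-day Col0, and the CLIP group is 12-day seedlings of a CPSF70 overexpression line pulled down with anti-FLAG beads, whose promoter the labels do not give. RNA-seq covers 12-day Col0 and cpsf70. All libraries came from whole seedlings and poly(A) RNA, so fewer cells that express a gene and less RNA per cell cannot be told apart. No label says that the 2 replicates of a group came from separate plantings, and p-values therefore measure the spread between these libraries, which may be technical.

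As a check of the genotype labels, CPSF30, the locus that also encodes CPSF70, is listed in the authors' deposited table with 5.58 and 4.87 FPKM for Col0, against 0.542 and 0.593 FPKM for cpsf70. The poly(A) tables give each cluster a level in TPM, in which tags are scaled to a common library total. Each transcript yields a tag at its 3′ end, so levels of different genes are not divided by length. From the spacing of low values, a single read was worth 0.164 TPM in cpsf70 replicate 2 and 0.257 to 0.319 TPM in the other libraries, which gives depths of 3140000 and 3250000 reads for Col0 replicates 1 and 2, and 3880000 and 6090000 reads for cpsf70. Clusters in the Col0 tables are no wider than 51 nt and never fall under 3 TPM. The cpsf70 tables share their 29896 clusters, up to 147 nt wide, with no value under 3 TPM in replicate 2 and 5944 values under it in replicate 1. A cluster missing from a table is therefore called unlisted, not absent, and presence in both cpsf70 tables counts as a single event.

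Clusters of the 4 tables were joined into a site where at most 24 nt lay between them. Positions are TAIR10, as the authors gave them, and distances are given in nt upstream of the annotated gene end. Fits used limma on log2(TPM + 1) with Benjamini-Hochberg adjustment over all features at 0.05, a scale on which changes of low levels come out too small. In Col0 the summed level of all clusters ran from 11.1 ± 3.99 TPM (SD, n = 2) for SR34b to 34.88 ± 34.97 TPM (SD, n = 2) for SCL33. SR34a (33.96 ± 2.04 TPM, SD, n = 2), SR30 (31.99 ± 3.89 TPM, SD, n = 2) and RS2Z33 (30.2 ± 3.50 TPM, SD, n = 2) formed the upper group and did not differ beyond their spread. RS31 (24.3 ± 1.71 TPM, SD, n = 2) and RS41 (23.7 ± 3.91 TPM, SD, n = 2) came next, and RS2Z32, SR34, RS40 and SR34b lay at 16.1 TPM or below, with overlapping spreads for the last 3.

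**Figure D1:**
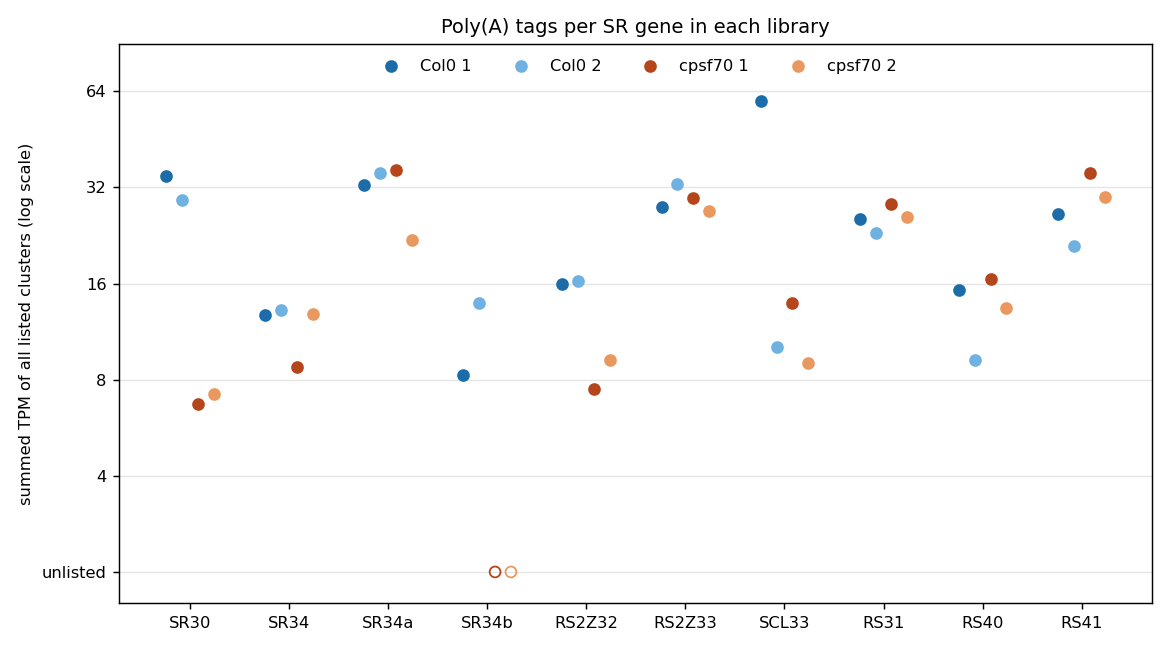
Summed poly(A) tags of all listed clusters of each SR gene (TPM, log scale) in the 2 Col0 and the 2 cpsf70 libraries, with open circles for a gene without a listed cluster. SR30 and RS2Z32 lie lower in both cpsf70 libraries, SR34b is unlisted there, and SCL33 in Col0 replicate 1 stands at 59.6 TPM against 9.03 to 13.9 TPM in the other libraries.

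The poly(A) tags of SR30 fell in cpsf70. RS2Z32 was also lower and was called under 1 setting of the joining, and SR34b was unlisted in cpsf70. SR30 (AT1G09140, chromosome 1, minus strand) is a homologue of human SRSF1 whose splicing pattern changes with light and stress. Its tags stood at 34.7 and 29.2 TPM in Col0 and at 6.69 and 7.22 TPM in cpsf70, or 109, 95, 26 and 44 reads. Both Col0 libraries lay far above both cpsf70 libraries, with means of 31.99 ± 3.89 and 6.96 ± 0.373 TPM (SD, n = 2 each), a ratio of 4.60.

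The level of SR30 fell by 2.05 on the log2 scale (SE 0.45, adjusted p = 0.00049, limma). Of all genes tested for their total, 1.54% were called lower and 0.255% higher, and 1 of the 8 measured members, SR30, was called in this fit. It remained called when any single library was left out, with changes of -2.17 to -1.93. Such fits leave 1 library in a genotype and give all genes the same SE, so they do not measure the spread of SR30 itself. As a single site, with the same values, SR30 missed the threshold without Col0 replicate 1 and without cpsf70 replicate 1. The SR30 total was not called with clusters joined only where they touch (-0.63, adjusted p = 0.99985, limma). Nor was it called with that joining and missing clusters set to 3 TPM (-1.24, adjusted p = 0.198, limma), nor with a replicate block (adjusted p = 0.128, limma).

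The fall in SR30 followed its clusters near the gene end. Col0 listed 3 clusters there, of which the nearest, chr1:2942565-2942591, stood at 5.74 and 6.16 TPM and the middle cluster, chr1:2942614-2942639, at 15.6 and 13.5 TPM. Both were unlisted in cpsf70 and so entered its total as 0 TPM. The cluster furthest upstream, at chr1:2942651-2942674 in Col0 (13.4 and 9.54 TPM) and chr1:2942655-2942686 in cpsf70 (6.69 and 7.22 TPM), was the only cluster of SR30 listed in both genotypes.

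The mean position of SR30 tags therefore lay 94.4 and 90.0 nt upstream of the gene end in Col0 and 132.5 nt in both cpsf70 libraries, a shift of 40.3 nt upstream. The genotypes did not overlap, but the cpsf70 position comes from a single cluster whose bounds both tables share and so carries no replicate error. The clusters nearer the gene end, unlisted in cpsf70, were left out of that position. The shift was not computed with them at 3 TPM.

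SR34 (AT1G02840, chromosome 1, plus strand), the closest Arabidopsis counterpart of SRSF1 in long use as a marker of nuclear speckles, showed a like arrangement of clusters at a lower level. Its cluster nearest the gene end, chr1:629791-629820, stood at 4.46 and 7.70 TPM in Col0 and was unlisted in cpsf70. Its middle site, chr1:629713-629762, stood at 3.51 and 5.54 TPM in Col0 and at 5.66 and 6.57 TPM in cpsf70, and its site furthest upstream, chr1:629588-629620, at 4.78 TPM in Col0 replicate 1, unlisted in Col0 replicate 2, and 3.09 and 6.24 TPM in cpsf70. The sums over all clusters, 12.8 and 13.2 TPM in Col0 against 8.75 and 12.8 TPM in cpsf70, were close in 3 of the 4 libraries.

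The middle site, the only SR34 site in all 4 tables, was slightly higher in both cpsf70 libraries than in either Col0 library, by 0.39 on the log2 scale (SE 0.45, adjusted p = 0.99965, limma), which did not pass. The mean position of SR34 tags was 283 and 219 nt upstream of the gene end in Col0 and 304 and 323 nt in cpsf70, a shift of 62.8 nt upstream with no overlap. Without Col0 replicate 2 the shift was 30.8 nt, and without Col0 replicate 1 it was 94.8 nt. The size of the shift thus rests on which Col0 library is used. Unlisted clusters were left out of these means, and the shift was not computed with them at 3 TPM.

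SR34a (AT3G49430, chromosome 3, plus strand), a further SRSF1 homologue, used a single joined site at chr3:18334993-18335097 in every table. It stood at 32.5 and 35.4 TPM in Col0 and at 36.3 and 21.8 TPM in cpsf70. The genotypes overlapped, and the change of -0.26 (SE 0.45, adjusted p = 0.99965, limma) did not pass.

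Within that site, SR34a has an upstream and a downstream cluster that lie directly beside each other. The upstream cluster, chr3:18334993-18335042, stood at 23.3 and 24.3 TPM in Col0 and at 17.8 and 12.0 TPM in cpsf70, whereas the downstream cluster, chr3:18335044-18335097, stood at 9.24 and 11.1 TPM in Col0 and at 18.5 and 9.85 TPM in cpsf70. These bounds span both genotypes, and the downstream cluster was drawn at chr3:18335044-18335086 in Col0 and at chr3:18335059-18335097 in cpsf70. The log2 ratio of downstream to upstream tags was -1.24 and -1.07 in Col0 and 0.06 and -0.26 in cpsf70. The genotypes did not overlap, and the change of 1.06 (SE 0.27, adjusted p = 0.0792, limma, clusters joined only where they touch) did not pass after adjustment. It ran towards the gene end, opposite to SR30 and SR34.

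Of the genes with a pair of such clusters in all 4 tables, 1.2% were called in this fit, while 19.1% were higher and 42.8% lower in this ratio with no overlap between the genotypes.

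SR34b (AT4G02430, chromosome 4, plus strand) is known for a mutant with reduced cadmium tolerance and altered splicing of the iron transporter gene IRT1. It was the member with no listed cluster in either cpsf70 table. Its site at the gene end, chr4:1072198-1072242, stood at 8.29 and 4.31 TPM in Col0. Col0 replicate 2 alone also listed 3.40 TPM at chr4:1072068-1072081 and 6.23 TPM at chr4:1070950-1070965, an internal cluster 1298 nt upstream of the gene end that held 44.7% of the tags of that library (95% Wilson interval 30.9% to 58.8%).

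Of all genes with a cluster, 7.54% had clusters in both Col0 tables and none in cpsf70. SR34b could not enter the fit of sites listed in all 4 tables. With unlisted sites set to 0 TPM its total was called lower (adjusted p = 0.0225, limma), as were 7.4% of all genes in that fit. With clusters joined only where they touch and unlisted ones set to 3 TPM it was not (-0.60, SE 0.16, adjusted p = 0.443, limma).

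The RS2Z subfamily is specific to plants and carries a pair of zinc knuckles beside its RNA recognition motif. RS2Z32 and RS2Z33 are paralogues. RS2Z32 was listed with other clusters in cpsf70 than in Col0, whereas RS2Z33 was listed at a single joined site in all 4 tables.

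RS2Z32 (AT3G53500, chromosome 3, minus strand) had a single cluster in Col0, chr3:19834331-19834353, at 15.9 and 16.3 TPM. This cluster, 91 nt upstream of the gene end, was unlisted in cpsf70. In its place cpsf70 listed chr3:19834379-19834424, 139 nt upstream of the gene end, at 5.66 and 4.10 TPM. The mean position of end tags was thus 102 nt upstream of the gene end in both Col0 libraries and 161.5 nt in both cpsf70 libraries. With a single cluster per genotype, whose bounds are shared by both libraries, this shift of 59.5 nt is 1 observation. It carries no replicate error and was not computed with unlisted clusters at 3 TPM.

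The cpsf70 tables also listed an internal cluster of RS2Z32 at chr3:19834838-19834870, 598 nt upstream of the gene end, at 1.80 and 5.09 TPM, which no Col0 table listed. It held 24.1% of RS2Z32 tags in cpsf70 replicate 1 (7 of 29 reads, 95% Wilson interval 12.2% to 42.1%) and 55.4% in replicate 2 (31 of 56 reads, 42.4% to 67.6%), and these intervals cover counting error only. The internal share was thus higher in replicate 2, and no spread between further samples is at hand to judge this difference.

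For the genes with both kinds of site, end use was the log2 ratio of summed tags in the last 500 nt to tags further upstream. In RS2Z32 this ratio was 4.08 and 4.11 in Col0 and 1.25 and -0.25 in cpsf70. Both cpsf70 values lay below both Col0 values. The change of -3.60 (SE 0.72, adjusted p = 0.0795, limma) did not pass. With a pseudocount of 0.5 TPM it was called (-4.48, adjusted p = 0.0497, limma), as were 8.26% of all genes in that direction, and with 3 TPM it was not (-2.34, adjusted p = 0.106, limma).

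No gene of 3461 was called in the first of these fits, 0% in either direction, although 989 had an unadjusted p under 0.05 (limma), 49.9% were lower and 13.1% higher with no overlap, and the median gene changed by -0.94. The lower floor of cpsf70 replicate 1 moves with this measure. With every value under 3 TPM set to 0, the median gene changed by -0.76, 1318 genes were lower with no overlap in place of 1728, and RS2Z32 changed by -2.86 (adjusted p = 0.317, limma). The RS2Z32 tags summed over all clusters were 15.9, 16.3, 7.47 and 9.19 TPM in Col0 replicates 1 and 2 and cpsf70 replicates 1 and 2, with no overlap. Set at 0 TPM where unlisted, they changed by -0.88 (SE 0.27, adjusted p = 0.247, limma), which did not pass. With clusters joined within 50 nt, which makes 1 site of the Col0 and cpsf70 clusters near the gene end and leaves out the internal cluster, the total was called lower (-1.55, SE 0.45, adjusted p = 0.0302, limma), as were 1.69% of all genes. In the fit of distal against proximal use with unlisted sites set to 0 TPM, RS2Z32 was called lower (adjusted p = 0.0328, limma), as were 5.5% of all genes. That fit compared chr3:19834331-19834353, listed in Col0 only, with chr3:19834379-19834424, listed in cpsf70 only. Each was set to 0 TPM in the other genotype, so the listing fixed the direction and the call adds no separate evidence.

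RS2Z33 (AT2G37340, chromosome 2, minus strand), whose overexpression is known to alter plant development and the splicing of its own transcript, ended at chr2:15670129-15670254, a site that reaches 18 nt beyond the annotated gene end. It stood at 27.7 and 32.7 TPM in Col0 and at 29.7 and 26.9 TPM in cpsf70. The genotypes overlapped, with a change of -0.09 (SE 0.45, adjusted p = 0.99965, limma).

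SCL33 (AT1G55310, chromosome 1, plus strand) belongs to the SC35-like proteins, which carry a charged extension before the RNA recognition motif, and is known to act on the splicing of its own transcript. Its site near the gene end, chr1:20632841-20632912, stood at 6.38 and 10.2 TPM in Col0 and at 13.9 and 9.03 TPM in cpsf70. The genotypes overlapped, with a change of 0.43 (SE 0.45, adjusted p = 0.99965, limma).

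Col0 replicate 1 alone listed a further SCL33 cluster of 53.2 TPM at chr1:20630217-20630227, 2780 nt upstream of the gene end, which was named here after its value had been seen. It held 89.3% of SCL33 tags in that library (167 of 187 reads, 95% Wilson interval 84.1% to 93.0%) and was unlisted in Col0 replicate 2 and in cpsf70. The end-to-internal log2 ratio of SCL33 was accordingly -2.88 and 3.48 in Col0 and 3.90 and 3.33 in cpsf70. Its change of 3.31 (SE 2.18, adjusted p = 0.358, limma) did not pass and rests on Col0 replicate 1, without which it was 0.13.

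The RS subfamily is specific to plants and has a pair of RNA recognition motifs. Its members RS31, RS40 and RS41 kept their sites near the gene end in cpsf70, with mean levels a little above those of Col0 and no call. RS31 (AT3G61860, chromosome 3, minus strand), known for alternative splicing that responds to light through a signal from the chloroplast, stood at 25.5 and 23.1 TPM in Col0 and at 28.3 and 25.9 TPM in cpsf70 at chr3:22900068-22900177.

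The cpsf70 values of RS31 lay just above the Col0 values. The change of 0.15 (SE 0.45, adjusted p = 0.99965, limma) was smaller than the SE, which limma set to the same value for all genes. Over all genes, 18.4% were higher and 18% lower in total with no overlap between the genotypes, and over all single sites 22.5% were higher and 17.8% lower. Among the 8 members measured, RS31 and SR34 were higher in this way and SR30 was lower. SR34 counts here through its middle site only, and its total changed by -0.67 with clusters joined within 50 nt and by -0.27 with sites listed in any table. The median change of these 8 members was 0.23, against 0.02 for all genes, and 3 of the 8 changes were negative.

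Within the RS31 site, the cluster nearer the gene end, chr3:22900068-22900127, stood at 7.97 and 4.31 TPM in Col0 and at 10.04 and 11.2 TPM in cpsf70. The cluster upstream of it, chr3:22900133-22900177, stood at 17.5 and 18.8 TPM in Col0 and at 18.3 and 14.7 TPM in cpsf70. The cluster nearer the gene end was 37 nt wide in Col0 and 60 nt wide in cpsf70, so its tags were summed over unlike windows. As in SR34a, the downstream share was higher in both cpsf70 libraries, and the change of the log2 ratio by 0.89 (SE 0.38, adjusted p = 0.186, limma, clusters joined only where they touch) did not pass. Without Col0 replicate 2 it was 0.46.

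RS40 (AT4G25500, chromosome 4, plus strand), which is known to act with RS41 in microRNA processing and stress responses, ended at chr4:13027385-13027423. It stood at 15.3 and 9.23 TPM in Col0 and at 16.5 and 13.5 TPM in cpsf70. The genotypes overlapped, with a change of 0.30 (SE 0.45, adjusted p = 0.99965, limma).

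RS41 (AT5G52040, chromosome 5, plus strand) had 26.5 and 20.9 TPM in Col0, and in cpsf70 32.8 and 26.3 TPM, at its site near the gene end, chr5:21133461-21133598. Cpsf70 replicate 2 lay between the Col0 libraries, and the change of 0.31 (SE 0.45, adjusted p = 0.99965, limma) did not pass. Within this site the upstream cluster, chr5:21133461-21133502, stood at 5.74 and 6.46 TPM in Col0 and at 14.8 and 9.52 TPM in cpsf70. The downstream cluster, chr5:21133508-21133598, stood at 20.7 and 14.5 TPM in Col0 and at 18.0 and 16.7 TPM in cpsf70. These bounds span both genotypes. The upstream cluster was 25 nt wide in Col0 and 42 nt in cpsf70, and the downstream cluster 40 nt and 91 nt, so tags were summed over unlike windows. The upstream cluster was higher in both cpsf70 libraries while the downstream cluster overlapped, and the log2 ratio of downstream to upstream tags changed by -0.86 (SE 0.34, adjusted p = 0.169, limma, clusters joined only where they touch), which did not pass. Without Col0 replicate 1 it was -0.54.

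RS41 also had an internal cluster that only cpsf70 tables listed, at chr5:21132648-21132669, 1040 nt upstream of the gene end, with 2.57 and 3.61 TPM. It held 7.27% of RS41 tags in replicate 1 (95% Wilson interval 3.98% to 12.8%) and 12.1% in replicate 2 (8.12% to 17.6%). The end-to-internal log2 ratio was 4.78 and 4.46 in Col0 and 3.24 and 2.56 in cpsf70. The genotypes did not overlap, and the change of -1.71 (SE 0.57, adjusted p = 0.141, limma) did not pass. With a pseudocount of 3 TPM it was -0.73, and with values under 3 TPM set to 0 it was -0.80 with overlapping genotypes. The internal value of cpsf70 replicate 1 lies under the 3 TPM at which the Col0 tables stop, so a cluster of that level in Col0 would not have been listed.

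Over the family, internal clusters were listed in 4 of 10 members, SR34b, RS2Z32, SCL33 and RS41, against 36.5% of all genes with a cluster. RS2Z32 and RS41, 2 of 10 members, had an internal cluster in both cpsf70 tables and in no Col0 table, against 6.32% of all genes. No member had an internal cluster in both Col0 tables and in no cpsf70 table, which 2.38% of all genes had. These 2 directions are unlike by construction. The cpsf70 tables share their clusters, so listing in both is a single event, and replicate 1 may lie under 3 TPM. In Col0 each table must list a cluster at 3 TPM or more.

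The strongest Col0 cluster had no overlapping cpsf70 cluster in 5 of 10 members, namely SR30, SR34, SR34b, RS2Z32 and SCL33, against 27.7% of all genes. In SCL33 that cluster is the internal one of Col0 replicate 1. In the reverse direction only RS2Z32, 1 of 9 members, had a strongest cpsf70 cluster without a Col0 counterpart, against 8.02% of all genes. No member had a pair of joined sites listed in all 4 tables, so none entered the fit of distal against proximal site use at the joining distance of 24 nt, in which 0.772% of 1943 genes were called lower and 0% higher.

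**Figure D2:**
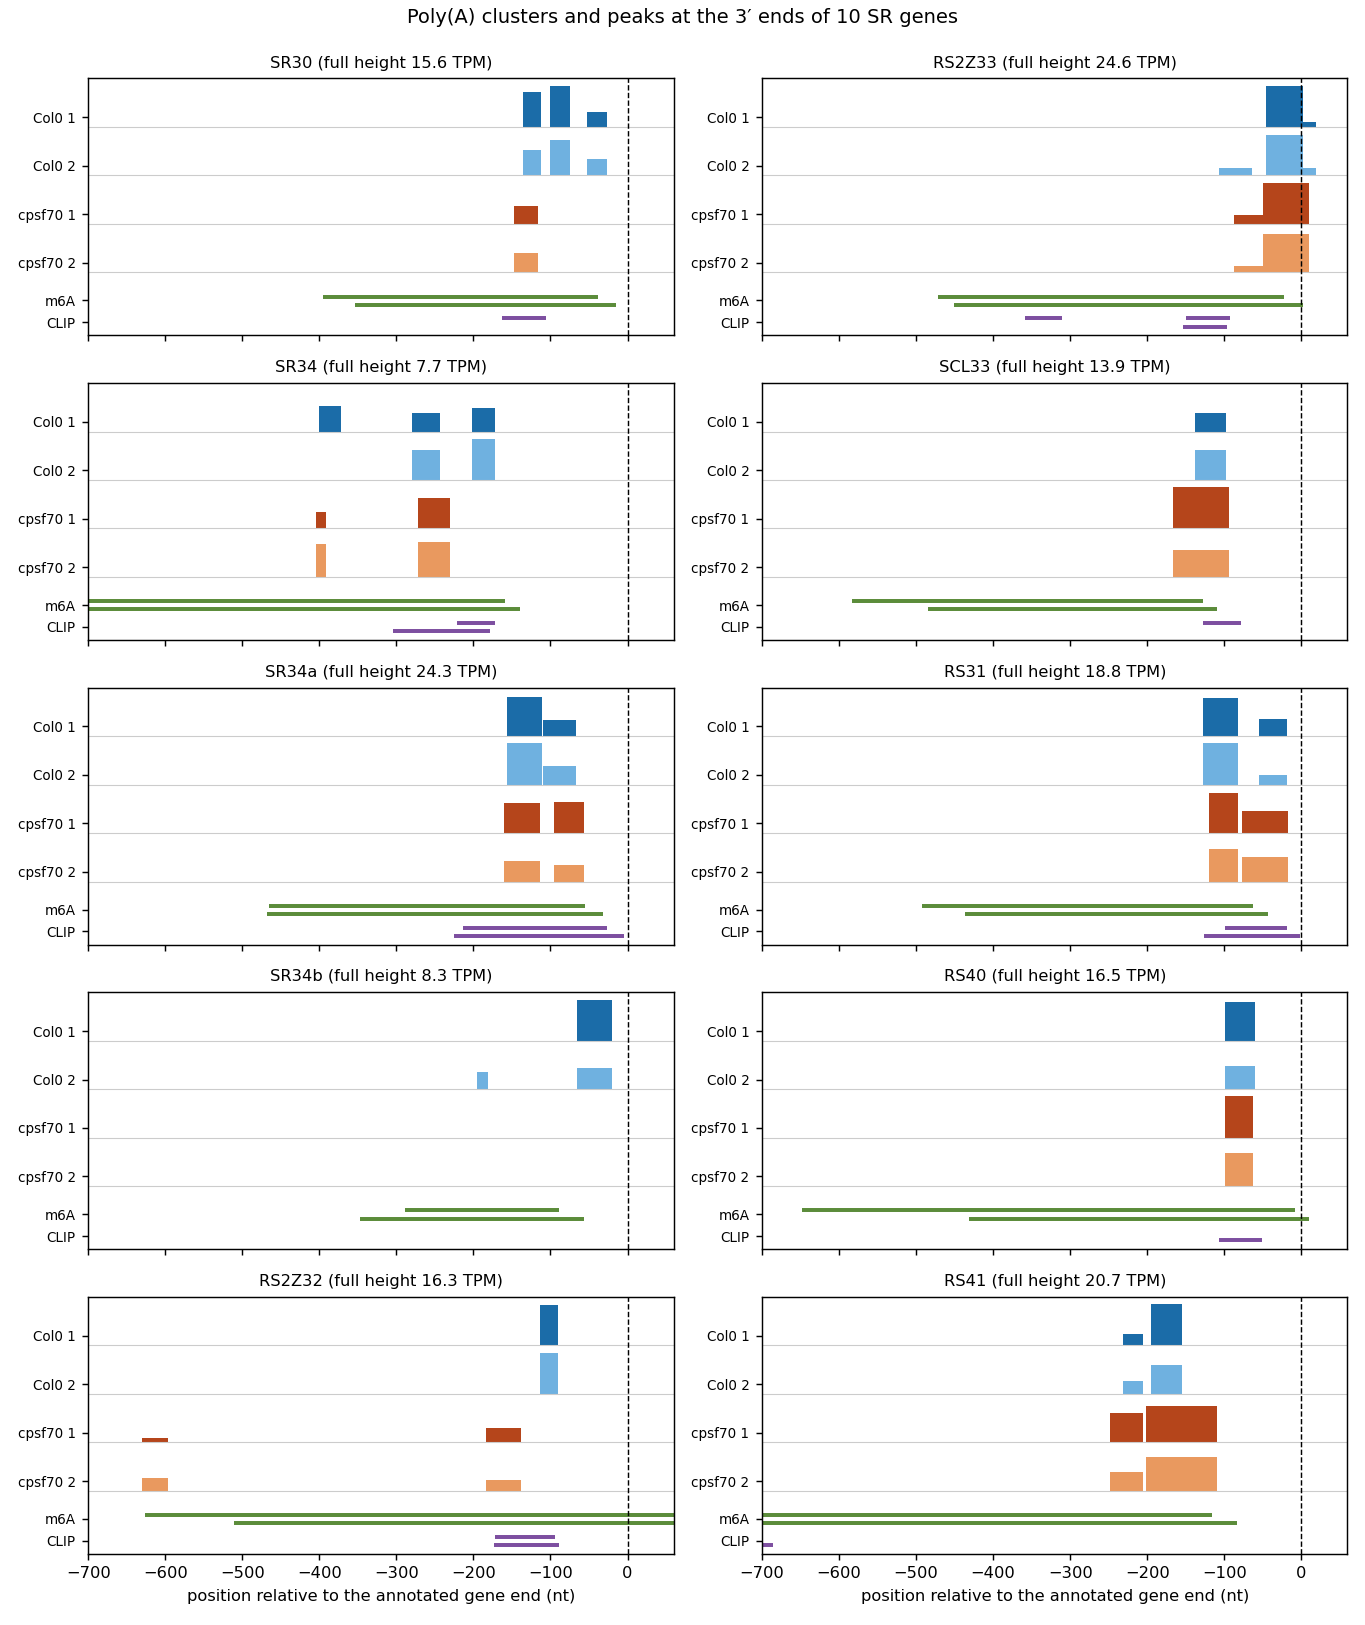
Deposited poly(A) clusters in the last 700 nt of the 10 SR genes for each library (bar height, TPM, scaled per gene to the value in its title), with the m6A and CLIP peaks of replicate 1 (upper line) and replicate 2 (lower line); the x axis is the position in nt relative to the annotated gene end (dashed line). In SR30, SR34 and RS2Z32 the cluster nearest the gene end is drawn in Col0 and not in cpsf70; clusters further upstream, such as that of SCL33 at 2780 nt, lie outside the map.

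Measured as the mean position of tags in the last 500 nt, 3 of 9 members, SR30, SR34 and RS2Z32, ended at least 20 nt further upstream in cpsf70 with no overlap, against 16.1% of all genes. None ended at least 20 nt further downstream, against 7.39% of all genes. These positions, for members and for all genes, take listed clusters only. In SR30, SR34 and RS2Z32 the cluster nearest the gene end was unlisted in cpsf70 and so left out of its mean. Tags there just under 3 TPM would make these shifts smaller. The shifts were not computed with unlisted clusters at 3 TPM, so their size under that setting was not tested. The 9 members changed by a median of 5.10 nt and all genes by 2.5 nt, but the members' median is the value of RS2Z33, which was 1.14 nt without Col0 replicate 1 and 9.06 nt without Col0 replicate 2. The remaining 6 members moved by between 13.0 nt downstream, in SR34a, and 12 nt upstream, in SCL33. Shifts of this size can follow from cluster bounds, which were drawn separately for each genotype and run up to 147 nt in cpsf70 and 51 nt in Col0, and this was not tested.

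**Figure D3:**
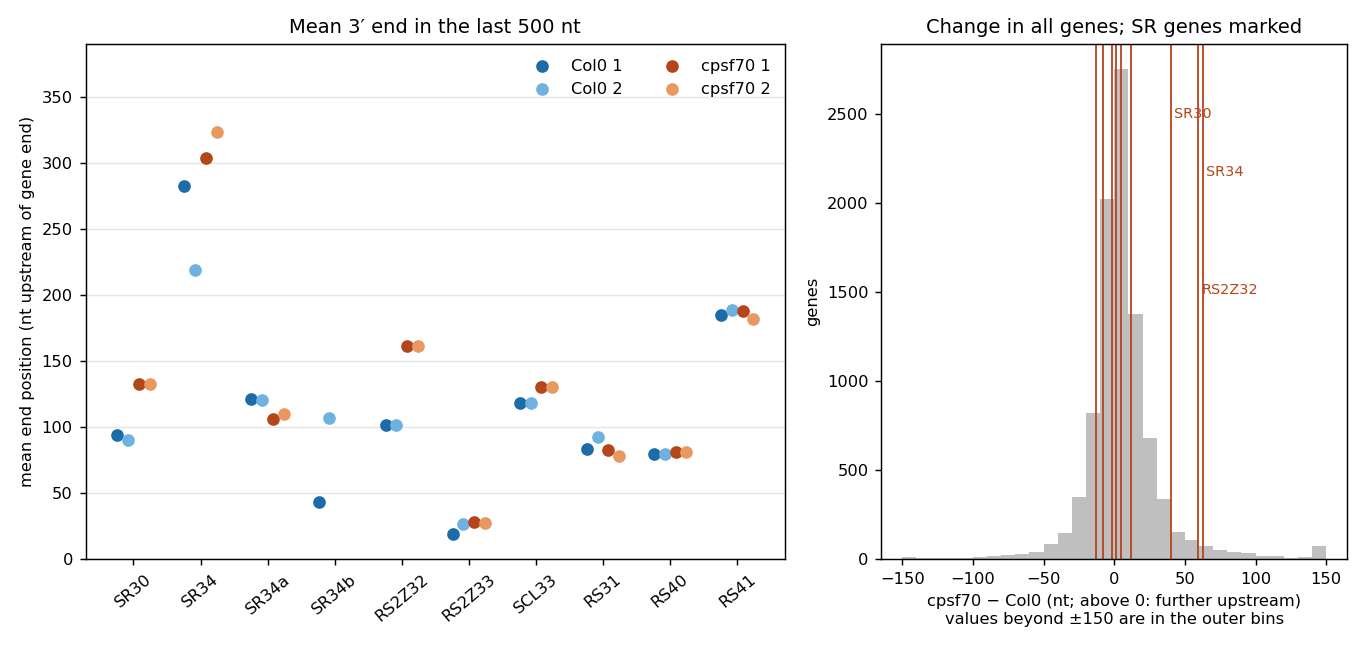
Left, mean position of poly(A) tags in the last 500 nt (nt upstream of the annotated gene end) of each SR gene in the 4 libraries; SR34b has no point in cpsf70. Right, histogram over 9352 genes of the change of this position between cpsf70 and Col0 (nt), with a vertical line for each of 9 SR genes. SR30, RS2Z32 and SR34 lie at 40.3, 59.5 and 62.8 nt, and the other 6 lie between -13.0 and 12 nt. Unlisted clusters are left out of the mean positions.

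All 10 members carried an m6A peak in Col0 that both replicates shared, and in each it lay at the 3′ end of the gene. Over all genes with a cluster the share with such a peak was 64.2%, and it was 71.1% among the 6930 genes within the members' range of mean level, 5.55 to 31.5 TPM. Folds are the authors' enrichment per peak, and peaks carry no strand. SR30 had the highest m6A fold of a member in replicate 2 (5.47 and 8.76 in replicates 1 and 2), and SR34a the highest in replicate 1 (6.22 and 6.87).

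SR34b had the lowest fold of the shared m6A peaks in replicate 1 (2.64 and 3.65), and RS2Z33 the lowest in replicate 2 (3.99 and 3.44). SR34 (3.33 and 3.94) lay below the table median in both replicates, and RS2Z32 (4.50 and 4.40) above it in replicate 1 and below it in replicate 2. RS40 (5.27 and 7.14), RS41 (5.10 and 7.01), SCL33 (4.15 and 7.48) and RS31 (4.32 and 6.10) had higher values in replicate 2, as the table as a whole did, with median folds of 4.23 and 5.73. The m6A peaks of RS2Z32, RS2Z33 and RS40 also reach into a neighbouring gene, so their methylated RNA cannot be assigned to the SR gene alone.

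The m6A peaks covered the sites where most members end. The strongest Col0 cluster overlapped a shared m6A peak in 8 of 10 members, against 48.5% of all genes. The exceptions were SR34b, whose strongest cluster overlapped the m6A peak of replicate 2 only, and SCL33, whose strongest cluster was the internal one.

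CPSF70 CLIP peaks shared by both replicates lay on 6 of 10 members, SR34, SR34a, RS2Z32, RS2Z33, SCL33 and RS31, against 29.1% of all genes and 30.1% of the genes in the members' range of level. RS2Z32 had the highest CLIP fold of a member in replicate 1, 9.16, and in replicate 2 it stood at 9.56 beside 9.59 in SR34a, against table medians of 3.90 and 4.28. Its CLIP peaks, chr3:19834334-19834412 and chr3:19834329-19834413, overlapped both its Col0 cluster and its cpsf70 cluster near the gene end. SR34a had 6.12 and 9.59 at chr3:18334941-18335128 and chr3:18334929-18335150, across its whole site.

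SR34 had CLIP folds of 4.08 and 5.87 at chr1:629772-629821 and chr1:629688-629814, over the cluster that cpsf70 did not list. The peak of replicate 2 also spanned the middle site, chr1:629713-629762, which both genotypes listed. RS31 had 3.19 and 5.24 at chr3:22900069-22900149 and chr3:22900051-22900176, across its site. RS2Z33 had 5.01 and 4.54 at chr2:15670240-15670297 and chr2:15670243-15670300, 93 and 96 nt upstream of the gene end and upstream of its strongest cluster.

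In these 5 genes the shared CLIP peak overlapped the shared m6A peak, 5 of 10 members against 18.1% of all genes and 19% of those in the range of level. The strongest Col0 cluster overlapped a shared CLIP peak in SR34, SR34a, RS2Z32 and RS31, 4 of 10 members against 12.9% of all genes. SCL33 differed from them, since its shared CLIP peak (folds 8.19 and 6.23, chr1:20632220-20632276 and chr1:20632225-20632277) ended 731 and 730 nt upstream of the gene end, upstream of its m6A peak. RS2Z33 had a further shared CLIP peak of lower fold (2.78 and 4.197) 2058 and 2045 nt upstream of its end, which also overlaps the gene AT2G08865 and cannot be assigned by strand.

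SR30 had no shared CLIP peak. Replicate 1 placed a peak of fold 3.78 at chr1:2942644-2942701, over its cluster furthest upstream, and replicate 2 placed a peak of fold 4.13 at chr1:2944124-2944173, within the gene. RS40 had a peak of fold 4.48 in replicate 2 only, RS41 had 3 peaks of which none was shared (folds of 3.40 in replicate 1 and of 4.09 and 5.54 in replicate 2), and SR34b had none. Of the 3 members that ended at least 20 nt further upstream in cpsf70, SR34 and RS2Z32 thus carried shared CLIP peaks at their ends and SR30 did not. Of the members without such a shift, SR34a, RS2Z33, SCL33 and RS31 also carried shared CLIP peaks, and RS40 and RS41 did not. Whether peaks and shifts go together was not tested with so few genes.

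**Figure D4:**
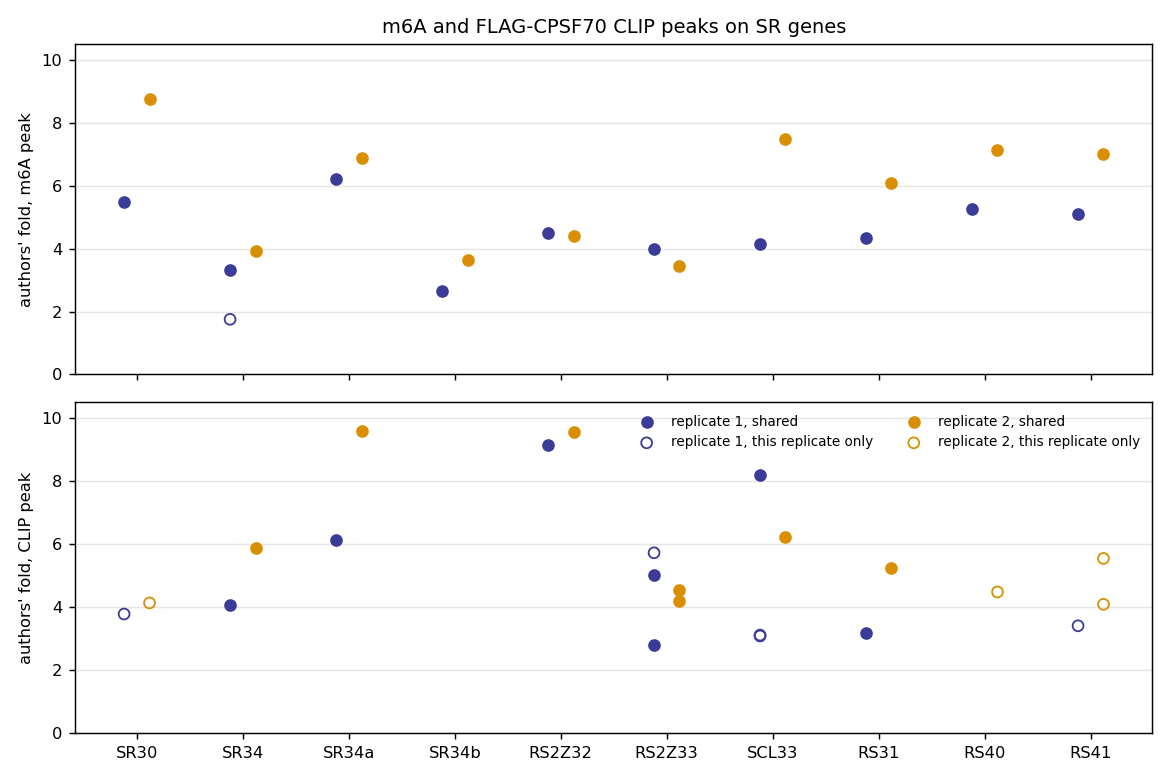
The authors' fold of every m6A peak (upper panel, Col0) and CLIP peak (lower panel, CPSF70 overexpression line) on each SR gene, by replicate, filled where the peak overlaps one of the other replicate. All 10 genes have a filled m6A pair with folds of 2.64 to 8.76, and 6 have a filled CLIP pair, with folds of up to 9.16 in replicate 1 (RS2Z32) and 9.59 in replicate 2 (SR34a).

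None of the 10 members is among the 168 genes of the authors' deposited table of RNA-seq differences. That table holds selected genes only, so the transcript levels of SR30 and of the other members by RNA-seq were not analysed here.

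A further 30 genes of the splicing pathway were read beside the members: 10 other SR and SR-like proteins, 4 genes for SR kinases and an SR importer, 7 genes of the early spliceosome, 5 other splicing regulators and 4 genes of nonsense-mediated decay. Of the 19 of these with a gene total in all 4 tables, 0 were called (limma), and 0 had an unadjusted p under 0.05. By list, 5 other SR proteins were measured with a median change of -0.04, 2 SR kinases with 0.06, 5 early spliceosome genes with 0.17, 3 other regulators with 0.12 and 4 decay genes with -0.09, none of which was called.

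Of 28 single sites in the same 19 genes, 1 was called higher and 0 lower, against 0.615% higher and 1.59% lower among all 13668 sites. It belongs to GRP8, a glycine-rich RNA-binding protein of the circadian clock that acts on splicing. This site, chr4:18274136-18274556, stood at 23.7 and 6.16 TPM in Col0 and at 34.5 and 65.8 TPM in cpsf70. Both cpsf70 values lay above both Col0 values, which themselves differed widely. The change was 1.87 (SE 0.49, adjusted p = 0.00987, limma), and it was not called without Col0 replicate 2 (0.98, adjusted p = 0.99988, limma) or without cpsf70 replicate 2 (1.42, adjusted p = 0.512, limma). The GRP8 call was also lost with median-ratio scaling (adjusted p = 0.290), the replicate block (0.345) and clusters joined only where they touch (1.33, adjusted p = 0.1701), all by limma. Distal against proximal site use was measured in 7 of the 30 genes, with 0 called and 3 at an unadjusted p under 0.05 (limma). Over all genes, 360 of 1943 had such a p in that fit. End against internal use was measured in 10, with 0 called and 1 at an unadjusted p under 0.05 (limma). Over all genes, 989 of 3461 had such a p. Whether the 30 genes differ from all genes in this was not tested.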

How the data were processed

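Per the submitters' processing notes, cutadapt 1.18, HISAT2 2.1.0, MACS2 2.2.5 and TAIR10 were used (settings and the control of the CLIP peaks: not given in the sources used here). Poly(A) cluster levels were deposited by the authors in TPM per library, and m6A and CLIP peaks per replicate with a fold enrichment and −log10 p-values, per the file headers. The authors' deposited RNA-seq table lists FPKM, fold and p-value of 168 genes. Both cpsf70 poly(A) tables carry 1 internal name but have 0 identical values, and internal names of the CLIP files cross the replicate numbers; sample titles were followed. CLIP of Col0 was not analysed here.

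TPM are not counts, and 75.7% to 81.9% of values under 10 TPM lay within 0.01 read of a whole number of reads, so no count test was run. Joining clusters gave 30191 sites, 13668 of them in all 4 tables. Gene spans came from RefSeq (TAIR10.1, coordinates not printed), and the strand of each gene from the tags at its ends. Sites up to 200 nt beyond a gene end were assigned to it. Gene totals sum the joined sites in all 4 tables, while end use takes any listed site, with unlisted ones at 0. A joined site counts as listed where any of its clusters is, so a cluster within it that a table does not list adds 0 to the total. Fits used limma 3.58.1 in R 4.3.3 with a pseudocount of 1 TPM and 2-sided p-values, and were tested on simulated data. For gene totals and single sites limma gave all features 1 spread, hence the same SE. Shared peaks overlap by at least 1 nt. The members, lists and tests were chosen with earlier results of these data known. All members are named, other genes where limma called them, and sites where listed in all 4 tables or, if internal, in both tables of a genotype with a mean of at least 3 TPM; other clusters were named after their values were seen. The joining of clusters only where they touch, for site use, was also taken up after seeing the data. Only 2 pairs share a replicate number, too few to say that numbers pair the libraries.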

Additional observations from a re-analysis of the deposited data

Results flagged for a closer look

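In RS41, Col0 replicate 2 listed a cluster on the strand opposite the gene, chr5:21133598-21133602, at 4.68 TPM, above the 0.923 TPM that 3 reads are worth in that library. It lies at the downstream edge of the RS41 site, no gene of that strand was found there, and no other library listed it. It stands here because it is a signal outside the clusters that the comparisons use.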

How the results depend on the processing

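The number of genes called for their total (183) was 122 to 171 with 1 library left out, 108 with clusters joined only where they touch, 51 with median-ratio scaling, 1497 with sites listed in any table, and 5 with clusters joined only where they touch and unlisted ones at 3 TPM, a pair of choices made after seeing the data. For single sites (301) it was 179 to 332 with 1 library left out, 34 with median-ratio scaling and 610 with a pseudocount of 3 TPM. For site use (15) it was 0 to 40 with 1 library left out (189 at an unadjusted p under 0.05 in the fit with 0, limma), 24 with sites of at least 3 TPM, 505 with sites in any table, 38 with clusters joined only where they touch, and 1505 with both. End against internal use (0) gave 1 with an end window of 1000 nt, 31 with 300 nt, 4 with sites listed in all 4 tables, 6 with sites of at least 3 TPM, 391 with a pseudocount of 0.5 TPM and 23 with 3 TPM. With the replicate block, the counts were 1 gene total, 0 single sites (2207 at an unadjusted p under 0.05, limma) and 41 for site use; deviations of libraries with the same number correlated by 0.198 across sites, and the 2 pairs are too few to say that they pair.

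Directions turned in members that were not called. SR34 turned to -0.67 with joining within 50 nt (total and single site), and its total to -0.27 with sites in any table and -0.073 with clusters joined only where they touch and unlisted ones at 3 TPM. SCL33 turned to -1.09 and -0.94 in the same fits of its total. With 1 library left out, RS2Z33 ran from -0.20 to 0.028 and RS40 from -0.036 to 0.64 (both turned without Col0 replicate 2), and SR34a from -0.61 to 0.095 (turned without cpsf70 replicate 2). Also turned was the single site of RS31, to -0.14 with clusters joined only where they touch. The single site of SR30 missed the threshold without Col0 replicate 1 (adjusted p = 0.0509, limma), without cpsf70 replicate 1 (0.0677), with median-ratio scaling (0.0834) and with the replicate block (0.265). The end shift of RS2Z32 was 239 nt over the last 1000 nt, which takes in its internal cluster. The count of members with m6A peaks (10, beside 9933 of all 15470 genes) was 7 with a fold of at least 4 (5872 genes). It was 10 under the other alternatives (9927 to 10533 genes). For CLIP peaks (6, beside 4504 genes) it was 5 with a fold of at least 4 (2961 genes) and 6 with an overlap of 50% of the shorter peak (4441 genes). It was 9 without CLIP replicate 1 (7159 genes) and 8 without CLIP replicate 2 (7661 genes), so the count over all genes rose as well. The causes were not tested.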
